A study of Mus musculus with 24 samples.

Results

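Transcripts of the oxidant response factor Nrf2, of its inhibitor Keap1, of 6 classical Nrf2 target enzymes and of the zinc-binding proteins metallothionein 1 and 2 were followed through 24 libraries of mouse bone marrow cells. The 10 genes, Nfe2l2 (the gene of Nrf2), Keap1, Hmox1, Nqo1, Gclc, Gclm, Txnrd1, Srxn1, Mt1 and Mt2, were chosen by symbol among the 23879 gene symbols of the files, and all 10 were found and tested in every comparison. The libraries hold polyA RNA of C57BL/6J mice and form 8 groups of 3, set by their titles: endothelial cells and stromal cells of the bone marrow, each from cells in vivo, from a co-culture series with hematopoietic stem and progenitor cells (HSPC) or alone, and from a further culture without that distinction, called culture here. The design compares transcriptomes of marrow endothelium and stroma in vivo with those in vitro and asks what added stem cells change. Titles of the 18 libraries from cells in vitro carry the name Akt1, and the labels do not say what was done to that kinase. The 6 other titles do not carry it, so in vivo and culture differ in that name too. The titles speak of HSPC where other labels speak of stem cells, and no label gives an age, a sex, a duration of culture or a number of animals, though headers of the endothelial files in vivo carry the word Young.

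Nrf2 is a transcription factor that is made all the time and destroyed at once. Keap1, an adaptor of a Cul3 ubiquitin ligase, holds it and marks it for degradation, and oxidants or electrophiles that react with cysteines of Keap1 let newly made Nrf2 escape to the nucleus, where it pairs with small Maf proteins on antioxidant response elements. Its control lies mainly in the protein, so the transcript of Nfe2l2 does not measure its activity. The targets detoxify quinones (Nqo1), break down heme (Hmox1), make glutathione (Gclc and Gclm) and keep thioredoxin and peroxiredoxins reduced (Txnrd1 and Srxn1). Metallothioneins are small cysteine-rich proteins that hold zinc and copper. Their genes answer to zinc through the factor Mtf1 on metal response elements and also to glucocorticoids and oxidants.

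Levels are the authors' FPKM (fragments per kilobase of transcript, scaled to library size), which allow genes to be compared per length, and differences were taken on log2(FPKM + 1) with their SE from limma, a linear model fitted across all genes. A gene was called where its p, adjusted by Benjamini-Hochberg over all tested genes, was under 0.05. Between 12447 and 13961 genes per library reached 1 FPKM. Library totals lay between 1421447 and 1808592 FPKM. The sequencing depth is unknown, so the error of each value is the scatter of the 3 libraries of its group. No label says that these came from separate cultures or animals, so p-values measure that scatter, which may be technical outside the culture groups. Libraries of a group correlated across genes at 0.9947 or above outside the culture groups, against 0.9624 to 0.9717 in cultured endothelium and 0.9539 to 0.9927 in cultured stroma. Xist, made by the inactive X chromosome of female cells, was high in 3 cultured libraries (endothelial replicate 2 with 1107 FPKM, endothelial replicate 3 with 1249.8 and stromal replicate 3 with 1006) and did not exceed 2.35 FPKM elsewhere. Both culture groups thus held libraries with and without Xist, so their scatter was not only technical. Where the Xist libraries are left out, only replicate 1 of cultured endothelium remains, so calls in that setting hold no spread of that group. The 5 endothelial markers (Pecam1, Cdh5, Kdr, Tek and Emcn) summed to 4973 to 13136 FPKM in endothelial libraries and to 23.99 FPKM or less in stromal ones, and the 5 stromal markers (Col1a1, Col1a2, Pdgfra, Pdgfrb and Lepr) to 298 FPKM or less in endothelial libraries and 3254 to 84804 FPKM in stromal ones. Of these, Lepr was at 0 in the 3 stromal libraries alone and at a mean of 0.17 FPKM in stroma with HSPC. In culture its mean was 21.3 FPKM in endothelium against 5.11 FPKM in stroma, with overlap and no call. In vivo its means were 55.7 FPKM in endothelium and 2586 FPKM in stroma.

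The 10 genes covered a wide range of levels and of stability. Keap1 was the steadiest, with group means between 61.2 and 108 FPKM, and Gclc followed with 53.7 to 149.6 FPKM. Means of Nfe2l2 ran from 289.7 to 974 FPKM and those of Txnrd1 from 137 to 645 FPKM, and in stroma with HSPC, for example, Nfe2l2 stood at 446 FPKM beside 1966 FPKM of Hmox1 and 83.1 FPKM of Gclc. Nqo1 spanned 87.9-fold between its lowest group, endothelium in vivo, and its highest, cultured endothelium. Hmox1 spanned 11.9-fold, with stroma in vivo lowest and stroma with HSPC highest, and Srxn1 9.03-fold, with endothelium in vivo lowest and endothelium with HSPC highest. The metallothioneins were the most abundant of the set in stroma, where Mt1 was at 861 FPKM or more and Mt2 at 607 FPKM or more in each of the 12 libraries, and they stayed at 114 FPKM or less in each of the 12 endothelial libraries.

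**Figure D1:**
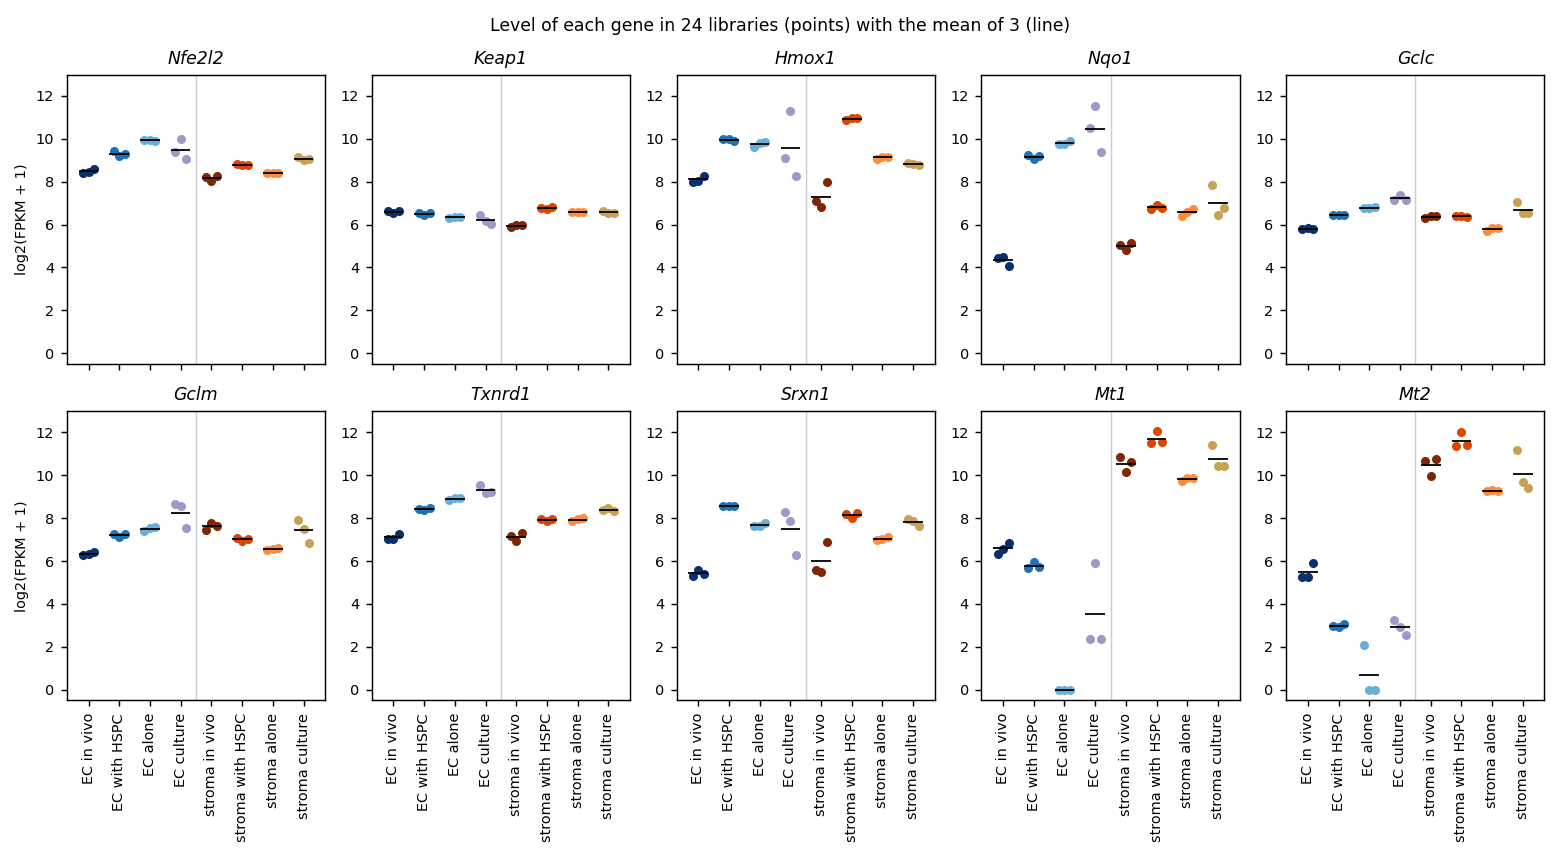
Level of each of the 10 genes as log2(FPKM + 1) (y axis) in the 8 groups (x axis, endothelium (EC) left of the grey line and stroma right of it), with a point per library and a line at the mean of 3. Mt1 and Mt2 lie high in all stromal groups and low in endothelium, Nqo1 lies lowest in vivo in both cell types, and cultured endothelium has the widest spread for Hmox1, Nqo1 and Srxn1.

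Promoter sequences show where the elements named above occur. RefSeq windows (build GRCm38.p6, 250 bases before to 50 after an annotated start) matched 8 of the 10 genes in 10 windows, Hmox1 and Gclc having none in the table used. Both strands were searched for the core of the antioxidant response element, TGACNNNGC or TGAGNNNGC, and for that of the metal response element, TGCACNC or TGCGCNC. At least 1 antioxidant core was present in 27.8% of all 32851 windows and at least 1 metal core in 25.7%, so a single match is common. Srxn1 held 3 antioxidant cores, where 0.63% of windows held 3 or more. Mt2 held 4 metal cores and Mt1 held 3, where 0.517% of windows held 4 or more and 1.97% held 3 or more. These 3 windows are printed because each held 3 or more matches to a single core, as that of Gclm also did, and because their genes had 3 of the 4 largest rises of the set in stroma with HSPC. They are given with matches to either core in capitals on the strand of the gene. They are chr2:152105274-152105573 (plus strand) for Srxn1, chr8:94172368-94172667 (plus strand) for Mt2 and chr8:94178839-94179138 (plus strand) for Mt1.
Srxn1: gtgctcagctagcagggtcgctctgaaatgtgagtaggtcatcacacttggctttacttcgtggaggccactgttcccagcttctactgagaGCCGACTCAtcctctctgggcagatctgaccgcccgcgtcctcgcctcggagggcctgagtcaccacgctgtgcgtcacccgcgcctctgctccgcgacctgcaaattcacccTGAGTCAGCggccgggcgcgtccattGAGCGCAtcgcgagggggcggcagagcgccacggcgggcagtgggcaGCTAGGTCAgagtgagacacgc
Mt2: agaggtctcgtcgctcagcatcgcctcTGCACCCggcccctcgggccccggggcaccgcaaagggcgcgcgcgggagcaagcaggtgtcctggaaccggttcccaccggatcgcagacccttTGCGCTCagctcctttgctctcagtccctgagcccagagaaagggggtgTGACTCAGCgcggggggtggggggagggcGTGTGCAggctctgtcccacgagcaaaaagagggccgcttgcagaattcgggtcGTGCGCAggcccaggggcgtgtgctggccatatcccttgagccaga
Mt1: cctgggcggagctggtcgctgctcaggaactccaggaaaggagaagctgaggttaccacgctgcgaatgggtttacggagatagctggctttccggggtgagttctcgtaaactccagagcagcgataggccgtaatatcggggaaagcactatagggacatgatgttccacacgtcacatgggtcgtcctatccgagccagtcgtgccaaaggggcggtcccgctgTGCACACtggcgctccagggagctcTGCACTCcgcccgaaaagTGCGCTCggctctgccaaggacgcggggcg

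The window of Mt2 also held 1 antioxidant core, 79 to 71 bases before the start, and that of Srxn1 also held 1 metal core. Gclm held 1 antioxidant and 3 metal cores, with the antioxidant core overlapping a metal core by 3 bases. Nfe2l2 and the second of 3 starts of Txnrd1 held 1 antioxidant core each, and the windows of Nqo1, Keap1 and the other starts of Txnrd1 held neither. A match is a run of letters and not a shown binding site, and elements outside these windows were not searched. Mt2 and Mt1 are neighbours on the same strand of chromosome 8, with annotated starts 6471 bases apart.

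**Figure D2:**
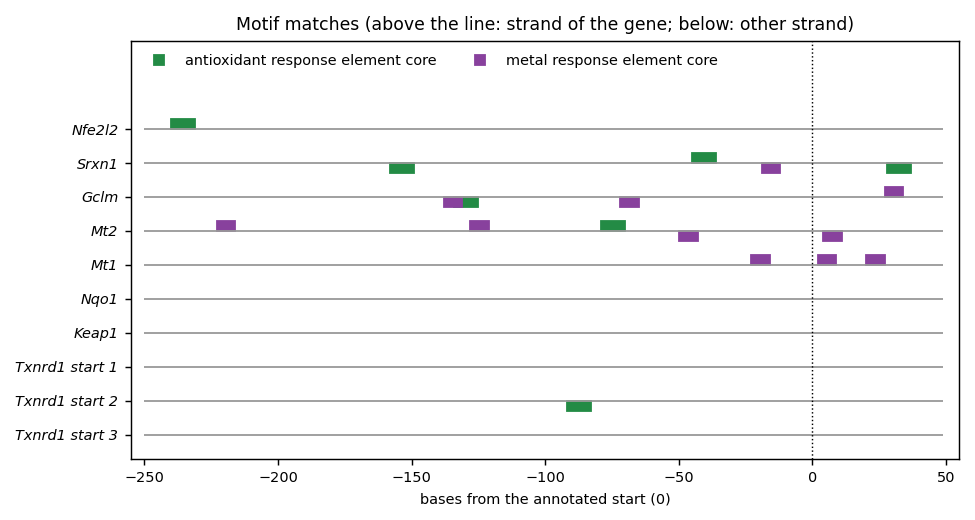
Matches to the antioxidant response element core (green) and the metal response element core (purple) in the 10 promoter windows, by distance in bases from the annotated start at 0 (x axis). Blocks above a line lie on the strand of the gene and blocks below it on the other strand, with 3 green blocks for Srxn1, 4 purple for Mt2 and 3 purple for Mt1.

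With HSPC, Nfe2l2 and its targets Nqo1, Gclc and Gclm fell in endothelium and rose in stroma, while Srxn1, Hmox1, Keap1 and both metallothioneins were higher in both. The rise of Nqo1 in stroma was small, and its groups overlapped. In endothelium all 10 genes were called against endothelium alone, 5 higher and 5 lower, where 48.6% of all 14017 tested genes were called (28.3% higher and 20.3% lower). Higher calls were 58.2% of all calls in endothelium, and 45.4% under quantile normalization. In stroma 9 of 10 were called, all higher, where 61.0% of tested genes were called and 25.6% were called higher. The median log2 difference of the 10 genes was -0.06 in endothelium and 0.54 in stroma, beside 0.02 and -0.04 over all tested genes. The effect of HSPC itself differed between endothelium and stroma for 8 of 10 genes, 7 of them lower in endothelium, where 57.0% of tested genes differed and 21.1% were lower. In bulk RNA fewer cells of a type cannot be told apart from less RNA per cell.

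Nfe2l2 was at 684, 596 and 631 FPKM in endothelium with HSPC, against 988, 978 and 958 FPKM in endothelium alone. In stroma with HSPC it was at 455, 439 and 445 FPKM, against 339, 340.3 and 337 FPKM in stroma alone. No library with HSPC overlapped its group alone in either cell type, and the order was reversed between them. The log2 difference was -0.61 ± 0.04 in endothelium (limma adjusted p = 5.9e-07) and 0.40 ± 0.04 in stroma (limma adjusted p = 1.24e-05), and the effects differed by -1.01 ± 0.06 (limma adjusted p = 2.48e-07). Keap1, the inhibitor, rose slightly in both, by 0.17 ± 0.03 in endothelium and 0.17 ± 0.03 in stroma (limma adjusted p = 0.00121 and 0.000778), with levels between 78.4 and 111 FPKM in the 12 libraries.

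Among the targets in endothelium, Nqo1, the quinone reductase, fell most. It stood at 599, 526 and 578 FPKM with HSPC, against 872, 875 and 942 FPKM alone, with no overlap (log2 difference -0.66 ± 0.08, limma adjusted p = 3.82e-05). Txnrd1, the cytosolic thioredoxin reductase, had a log2 difference of -0.48 ± 0.05, and Gclc and Gclm, the catalytic and modifier subunits of the enzyme that starts glutathione synthesis, -0.33 ± 0.04 and -0.30 ± 0.06. Txnrd1 was at 329 to 351 FPKM with HSPC against 459 to 491 FPKM alone, Gclc at 85.5 to 87.7 FPKM with HSPC against 107 to 110.1 FPKM alone, and Gclm at 138 to 152.5 FPKM with HSPC against 165 to 193 FPKM alone. Each of these ranges lay wholly below its counterpart (limma adjusted p between 7.56e-06 and 0.00271).

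Srxn1, which restores overoxidized peroxiredoxins, went the other way in endothelium. Its 3 libraries with HSPC were nearly equal, at 383, 381 and 381 FPKM, against 200.4, 197 and 220.0 FPKM alone. That is a log2 difference of 0.89 ± 0.06 (limma adjusted p = 2.89e-07). Hmox1, the stress-induced heme oxygenase, was at 1004, 1033 and 965 FPKM in endothelium with HSPC, against 775, 890.5 and 928 FPKM alone. Its difference was small, at 0.21 ± 0.06 (limma adjusted p = 0.0172), and was not called under quantile normalization (0.11, limma adjusted p = 0.204) or without replicate 1 of endothelium alone (0.14, limma adjusted p = 0.0579) or without replicate 2 of endothelium with HSPC (0.19, limma adjusted p = 0.0634).

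In stroma, Hmox1 changed most among the targets. It was at 1854, 2036 and 2007 FPKM with HSPC, against 541, 574 and 573 FPKM alone. The groups were far apart beside their spread (log2 difference 1.80 ± 0.06, limma adjusted p = 1.43e-09), and the effect was larger than in endothelium by the test of the difference (-1.59 ± 0.09 for endothelium minus stroma, limma adjusted p = 1.49e-07). Srxn1 was at 288, 259 and 303 FPKM in stroma with HSPC, against 126, 131 and 136 FPKM alone, a rise of 1.10 ± 0.06 (limma adjusted p = 3.51e-08). Its effect differed from that in endothelium by only -0.21 ± 0.08 (limma adjusted p = 0.0447), a call that was lost when any of 9 of the 12 libraries was left out in turn, with limma adjusted p up to 0.106.

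The glutathione genes rose in stroma where they had fallen in endothelium. Gclc was at 83.1, 84.7 and 81.6 FPKM with HSPC, against 50.1, 55.5 and 55.4 FPKM alone (0.62 ± 0.04, limma adjusted p = 1.98e-07), and Gclm at 121 to 134 FPKM with HSPC, against 89.9 to 98.1 FPKM alone (0.45 ± 0.06, limma adjusted p = 8.5e-05). Nqo1 was at 106, 119 and 108 FPKM in stroma with HSPC, against 84.5, 94.5 and 106 FPKM alone. The groups of Nqo1 overlapped, and its rise of 0.23 ± 0.08 (limma adjusted p = 0.0275) was not called without replicate 1 or 2 of stroma alone or replicate 2 with HSPC (limma adjusted p 0.115, 0.0629 and 0.0913), nor in a fit of the compared groups only (limma adjusted p = 0.0612). Txnrd1 was at 249, 231 and 249.6 FPKM with HSPC, against 230.0, 244 and 254 FPKM alone, with overlap and no call (0.00 ± 0.05, limma adjusted p = 0.988). For Nqo1, Gclc, Gclm and Txnrd1 the effects in endothelium and stroma differed by -0.88 ± 0.11, -0.95 ± 0.06, -0.75 ± 0.09 and -0.49 ± 0.07 (limma adjusted p between 2.47e-07 and 9.98e-05).

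Both metallothioneins were higher with HSPC in both cell types, at levels far apart. In endothelium with HSPC, Mt1 was at 49.5, 61.0 and 52.3 FPKM, and it was listed at 0 in all 3 libraries of endothelium alone (limma adjusted p = 8.57e-11). Mt2 was at 6.82, 6.61 and 7.44 FPKM in endothelium with HSPC, against 3.30, 0 and 0 FPKM alone (limma adjusted p = 0.00129). A value of 0 here means only that the authors' table lists 0. None of 12 widely used genes, short ones such as Rpl41 and Tomm7 among them, was at 0 in any library. None of these fell below 52.85 FPKM, so they cannot show how genes of a few FPKM are listed. In stroma, Mt1 was at 2921, 4304 and 3039 FPKM with HSPC, against 861, 951 and 936 FPKM alone, 3.74 times the mean (log2 difference 1.88 ± 0.12, limma adjusted p = 2e-07). Mt2 was at 2649, 4138 and 2728 FPKM with HSPC, against 607, 629 and 626 FPKM alone, 5.11 times the mean (2.32 ± 0.44, limma adjusted p = 0.000779). The difference between the effects on Mt2 was not called (-0.03, limma adjusted p = 0.969), and its value depends on the pseudocount. The SE of Mt2 carries the 3.30, 0 and 0 of endothelium alone, since the 4 groups share a spread, and with a pseudocount of 0.1 the stromal call was lost (limma adjusted p = 0.0848). In all, Mt1 and Mt2 held 0.338% to 0.522% of the summed FPKM of stromal libraries with HSPC, against 0.0961% to 0.101% alone.

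**Figure D3:**
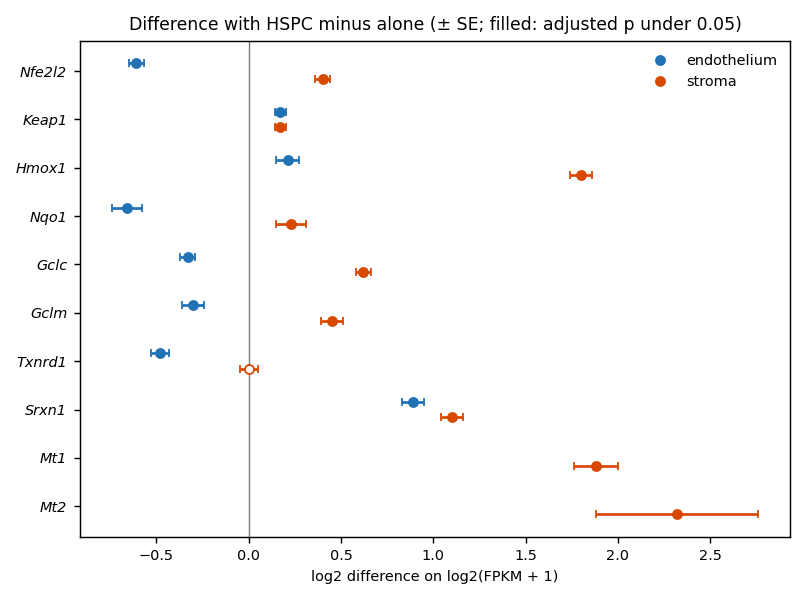
Log2 difference of log2(FPKM + 1), with HSPC minus alone (x axis, ± SE), for each gene in endothelium (blue) and stroma (orange), filled where the adjusted p is under 0.05. Nfe2l2, Nqo1, Gclc and Gclm lie left of 0 in endothelium and right of it in stroma, and Mt1 and Mt2 in endothelium are not drawn because Mt1 is listed at 0 in all and Mt2 in most libraries of endothelium alone.

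Blood cell transcripts were present in the libraries with HSPC. The 6 granulocyte markers (S100a8, S100a9, Ngp, Camp, Elane and Mpo) were all detected with HSPC, at sums of 1373 to 1557 FPKM in endothelium and 594 to 790.35 FPKM in stroma, and all 6 were at 0 in both cell types alone. The 6 leukocyte markers (such as Ptprc and Coro1a) summed to 73.1 to 99.7 FPKM in endothelium with HSPC against 1.84 to 3.42 FPKM alone, and to 16.7 to 24.2 FPKM in stroma with HSPC against 0 to 0.88 FPKM alone. The 7 macrophage markers summed to 356 to 382 FPKM in endothelium with HSPC against 259 to 294 FPKM alone, with Cd68 at 300.33 to 324 FPKM with HSPC against 184 to 203 FPKM alone (0.71, called) and Csf1r at 4.85 to 5.87 FPKM with HSPC against 1.62 to 2.01 FPKM alone (1.24, called). Mertk of this list fell in endothelium, to a mean of 49.8 FPKM with HSPC against 82.6 FPKM alone (-0.71, called). In stroma the 7 markers summed to 30.7 to 38.1 FPKM with HSPC against 30.8 to 36.4 FPKM alone, and C1qa and C1qb were at 0 in all 12 libraries. Csf1r was called lower in stroma, at a mean of 0.57 FPKM with HSPC against 1.07 FPKM alone (-0.38). The 6 erythroid markers summed to 3.34 FPKM or less. The 5 stromal markers summed to 3.40 to 4.55 FPKM in endothelium with HSPC against 5.94 to 18.7 FPKM alone. The part of these cells in the values with HSPC was not tested.

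Other genes of the pathway were described by lists. Of 18 further Nrf2 targets, 7 rose and 4 fell in endothelium with HSPC (median log2 difference 0.02) and 8 rose and 4 fell in stroma (median 0.12). Over all tested genes 48.6% were called in endothelium (28.3% higher and 20.3% lower) and 61.0% in stroma (25.6% higher). Gstp1, a glutathione transferase, fell in endothelium (-0.65), and Tkt, the transketolase of the pentose phosphate pathway, rose (0.57). Abcc1, a glutathione conjugate pump, rose in both, by 0.65 and 0.70, and Slc7a11, the cystine importer that feeds glutathione synthesis, by 0.35 and 0.89, at a limma adjusted p of 0.0498 in endothelium. Me1 (malic enzyme, a source of NADPH) and Ephx1 (epoxide hydrolase) rose in stroma by 1.02 and 1.12, whereas Ephx1 fell in endothelium (-0.44). The glutathione transferase gene Gsta4 did the reverse, with 0.58 in endothelium and -1.35 in stroma. Of 10 regulators and partners, 3 rose and 4 fell in endothelium, and 6 rose and 2 fell in stroma, where the same 48.6% and 61.0% of all genes were called. Maff, Mafg and Mafk, the small Maf genes, and Sqstm1, whose product p62 binds Keap1, rose in stroma by 2.70, 0.40, 0.45 and 0.66. In endothelium Mafg, Mafk and Sqstm1 fell (-0.31, -0.38 and -0.59), and Maff had 0.10 and was not called. Bach2, a relative of Bach1, was listed at 0 with HSPC and at 0.57 to 0.79 FPKM alone in endothelium (called lower). Bach1, a repressor of Hmox1, rose in endothelium (0.43) and fell in stroma (-0.41). Nfe2, a blood cell relative of Nfe2l2, was listed at 0 in all 6 libraries alone and at 2.27 to 14.9 FPKM in all 6 with HSPC.

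Of 11 tested zinc genes, 3 rose and 2 fell in endothelium with HSPC, where 48.6% of all genes were called, and 4 rose and 2 fell in stroma, where 61.0% were. Slc30a1, the zinc exporter of the plasma membrane and a known Mtf1 target, fell in both cell types while the metallothioneins were higher, to 83.7 to 93.2 FPKM in endothelium with HSPC against 155 to 163 FPKM alone (-0.85), and to 8.33 to 8.46 FPKM in stroma with HSPC against 30.8 to 33.8 FPKM alone (-1.82). The importer gene Slc39a14 fell in endothelium (-0.50) and rose in stroma (1.12), and Slc39a10 rose in both, by 0.22 and 1.40. Mtf1 itself was not called (0.15 and -0.10). Slc39a6, an importer gene, rose in endothelium (0.57) and Slc30a4, an exporter gene, in stroma (0.93). Of 12 other antioxidant enzymes, 5 rose and 2 fell in endothelium and 4 rose and 4 fell in stroma. In this list the peroxiredoxin gene Prdx5 rose in both, by 0.98 and 1.13, as did Gpx3 (0.65 and 0.67), while Prdx2 rose in endothelium (0.48) and fell in stroma (-0.55). Gpx3 was low throughout, at means of 2.44 FPKM with HSPC against 1.17 FPKM alone in endothelium and 2.46 against 1.16 FPKM in stroma. Sod3, the extracellular superoxide dismutase, fell in endothelium (-0.39) and in stroma (-0.53). Its endothelial means were also low, at 1.52 FPKM with HSPC against 2.25 FPKM alone. The glutathione peroxidase gene Gpx1 was at -1.03 in stroma and 0.03 in endothelium, where the difference of 1.06 was itself called.

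In vivo, 5 of the 6 target enzymes fell relative to culture in endothelium, all but Hmox1, and 3 fell in stroma (Nqo1, Txnrd1 and Srxn1), while the metallothioneins rose in endothelium. In endothelium 9 of 10 genes were called, 6 lower and 3 higher, where 53.3% of all 14904 tested genes were called (29.8% lower and 23.6% higher). In stroma 5 of 10 were called, all lower, where 55.4% of tested genes were called and 31.4% lower. Against stroma alone in place of culture, 6 were called lower and 4 higher (Gclc, Gclm, Mt1 and Mt2), where 79.8% of tested genes were called. The median log2 difference of the 10 genes was -1.44 in endothelium and -0.76 in stroma, beside -0.09 and -0.15 over all tested genes. The effect itself differed between endothelium and stroma for 7 of 10 genes, where 33.5% of tested genes differed. Trimmed-mean scaling moved these medians of all genes to 0.03 and 0.08 and the share of calls that were higher to 56.6% and 58.4%, against 44.2% and 43.3% unscaled, and each called gene of the 10 kept its direction under it.

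Nqo1 showed the largest difference of the set. It was at 20.4, 21.5 and 15.9 FPKM in endothelium in vivo, against 1445, 2961 and 666 FPKM in culture. It was at 31.7, 27.4 and 33.9 FPKM in stroma in vivo, against 233, 86.7 and 108 FPKM in culture. All libraries in vivo lay below all libraries in culture, and the log2 differences of -6.14 ± 0.49 in endothelium (limma adjusted p = 4.55e-06) and -2.04 ± 0.49 in stroma (limma adjusted p = 0.00515) themselves differed by -4.10 ± 0.69 (limma adjusted p = 0.00117). Across all 8 groups the order of Nqo1 was cultured endothelium, endothelium alone, endothelium with HSPC, cultured stroma, stroma with HSPC, stroma alone, stroma in vivo and endothelium in vivo. Of neighbours in this order, cultured endothelium and endothelium alone overlapped, and so did the stromal groups in vitro with each other.

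Txnrd1 was at 132, 128 and 152 FPKM in endothelium in vivo, against 756, 578 and 603 FPKM in culture (log2 difference -2.22 ± 0.14, limma adjusted p = 9.74e-07). In stroma it was at 142, 120.1 and 159.6 FPKM in vivo, against 327, 355 and 322 FPKM in culture (-1.25 ± 0.14, limma adjusted p = 3.71e-05). In vivo the cell types overlapped, and the larger difference in endothelium (by -0.97 ± 0.20, limma adjusted p = 0.00372) stands beside a higher level in culture. Srxn1 fell in endothelium (-2.06 ± 0.49, 38.3 to 47.1 FPKM in vivo against 77.7 to 316 FPKM in culture, limma adjusted p = 0.00488) and in stroma (-1.83 ± 0.49, 43.7 to 117 FPKM in vivo against 199.9 to 249 FPKM in culture, limma adjusted p = 0.00889), with no overlap in either.

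The glutathione genes fell in vivo in endothelium. Gclc was at 55.2, 56.4 and 54.3 FPKM in endothelium in vivo, against 141, 167 and 141 FPKM in culture (-1.41 ± 0.14, limma adjusted p = 2.54e-05), and Gclm at 76.4, 78.6 and 84.3 FPKM in vivo, against 399.8, 373 and 184 FPKM in culture (-1.91 ± 0.31, limma adjusted p = 0.000561). In stroma Gclc was at 77.9 to 83.7 FPKM in vivo, against 90.5 to 132 FPKM in culture (-0.33 ± 0.14, limma adjusted p = 0.0712), and Gclm at 176 to 216 FPKM in vivo, against 114 to 243 FPKM in culture (0.20 ± 0.31, limma adjusted p = 0.621). Neither was called in stroma, and the effects differed between the cell types for both, by -1.08 ± 0.20 for Gclc and -2.10 ± 0.44 for Gclm (limma adjusted p = 0.00236 and 0.00439). Against the co-culture series alone in place of culture, both genes were higher in vivo in stroma, Gclc by 0.59 and Gclm by 1.06 (limma adjusted p = 3.46e-07 and 1.5e-07), so for stroma the result depends on the culture it is set against.

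Hmox1 was at 255, 261 and 312 FPKM in endothelium in vivo, against 556, 2554 and 306 FPKM in culture. Cultured replicate 3 lay within the range in vivo and the other cultured libraries above it. The difference of -1.46 ± 0.62 was not called (limma adjusted p = 0.0693), while without cultured replicate 3 it was -2.11 and called (limma adjusted p = 0.00933). In stroma Hmox1 was at 137, 111 and 249 FPKM in vivo, against 465, 459.9 and 446 FPKM in culture, without overlap. Its difference of -1.54 ± 0.62 was not called with the spread shared over the 4 groups (limma adjusted p = 0.055) and was called when the stromal groups were fitted by themselves (limma adjusted p = 0.00632) or without cultured endothelial replicate 2 (limma adjusted p = 0.00195). Leaving out cultured endothelial replicate 3 or replicate 3 of stroma in vivo also gave a call (limma adjusted p = 0.0215 and 0.047). Against endothelium or stroma alone, Hmox1 was lower in vivo in both, with differences of -1.65 and -1.84 (limma adjusted p = 3.04e-05 and 1.09e-05).

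Nfe2l2 was at 344, 353 and 384 FPKM in endothelium in vivo, against 667, 1012 and 529 FPKM in culture (-0.98 ± 0.20, limma adjusted p = 0.00214). In stroma it was at 301, 264 and 304 FPKM in vivo, against 571, 516 and 537 FPKM in culture (-0.90 ± 0.20, limma adjusted p = 0.00336). The difference between these effects was not called (-0.08 ± 0.28, limma adjusted p = 0.86), though against stroma alone the stromal difference was -0.23. Keap1 parted the cell types: it was at 98.9, 91.5 and 99.5 FPKM in endothelium in vivo, against 87.8, 69.9 and 64.4 FPKM in culture (0.39 ± 0.12, limma adjusted p = 0.0162), and at 58.9, 62.5 and 62.3 FPKM in stroma in vivo, against 99.4, 93.2 and 91.3 FPKM in culture (-0.62 ± 0.12, limma adjusted p = 0.00126). The effects differed by 1.01 ± 0.16 (limma adjusted p = 0.000965). The rise in endothelium was 0.13 without the Xist libraries, where only replicate 1 of cultured endothelium remains. Under trimmed-mean scaling the rise was 0.63 (limma adjusted p = 0.000243). The rise of Keap1 was not called when replicate 1 or 3 of endothelium in vivo was left out (limma adjusted p = 0.0556 and 0.0539) or in a fit of the compared groups only (limma adjusted p = 0.059).

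Mt1 was at 80.6, 93.4 and 114 FPKM in endothelium in vivo, against 4.17, 58.4 and 4.09 FPKM in culture, and Mt2 at 37.4, 37.1 and 60.2 FPKM in vivo, against 8.64, 6.51 and 4.78 FPKM in culture. The groups did not overlap for either gene, though for Mt1 cultured replicate 2 stood near the libraries in vivo (3.05 ± 0.78, limma adjusted p = 0.00781 for Mt1, and 2.58 ± 0.43, limma adjusted p = 0.000646 for Mt2). In stroma Mt1 was at 1829.6, 1128 and 1564 FPKM in vivo, against 2742, 1386 and 1394 FPKM in culture, and Mt2 at 1653, 994 and 1741 FPKM in vivo, against 2288, 812 and 673 FPKM in culture. Both overlapped, and neither difference was called (-0.24 ± 0.78 and 0.40 ± 0.43, limma adjusted p = 0.825 and 0.461). Without cultured stromal replicate 1, Mt2 was called higher in vivo (0.94, limma adjusted p = 0.0274), and against stroma alone both were (0.69 and 1.19, limma adjusted p = 0.00156 and 0.0356). The effects in endothelium and stroma differed by 3.29 ± 1.11 for Mt1 and 2.18 ± 0.61 for Mt2 (limma adjusted p = 0.0431 and 0.0192). The call for Mt1 was lost when any library of the fit other than cultured endothelial replicate 2 was left out, with limma adjusted p between 0.0619 and 0.0972, and that for Mt2 without replicate 3 of endothelium in vivo or replicate 2 of stroma in vivo (limma adjusted p = 0.0516 and 0.0527). The call for Mt1 was also lost at a pseudocount of 0.1 and that for Mt2 without the Xist libraries (limma adjusted p = 0.0503 and 0.0617).

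**Figure D4:**
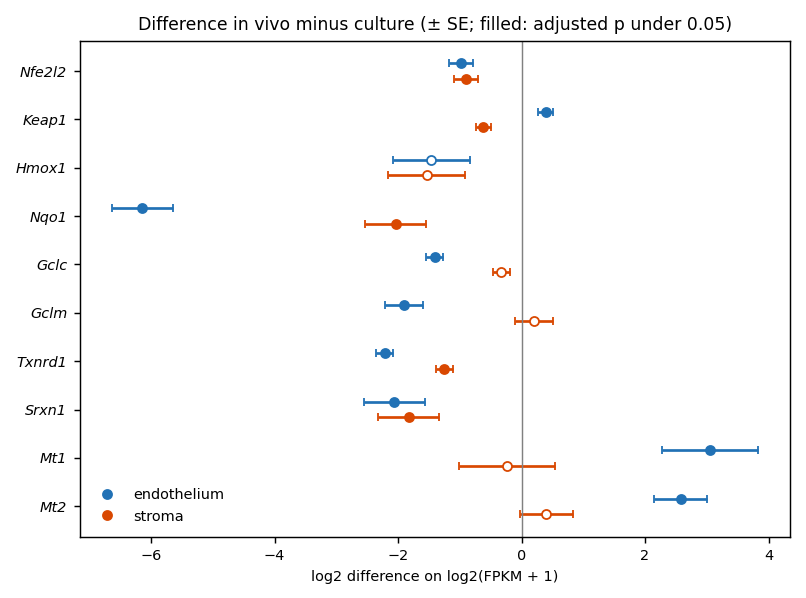
Log2 difference of log2(FPKM + 1), in vivo minus culture (x axis, ± SE), for each gene in endothelium (blue) and stroma (orange), filled where the adjusted p is under 0.05 and open where it is not. Nqo1 in endothelium lies farthest left, at -6.14, endothelium and stroma lie on opposite sides of 0 for Keap1, and Mt1 and Mt2 lie right of 0 in endothelium.

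Blood cell transcripts also differed between these groups. The 6 erythroid markers summed to 664 to 1299 FPKM in endothelium in vivo and 37009.8 to 44769 FPKM in stroma in vivo, against at most 2.54 FPKM in cultured endothelium and 0 in cultured stroma. The 6 granulocyte markers summed to 207 to 280.17 FPKM in endothelium in vivo and 1474 to 3213 FPKM in stroma in vivo and were at 0 in both cultures. The 6 leukocyte markers summed to 36.9 to 51.4 FPKM in endothelium in vivo against 1.71 to 7.44 FPKM in culture, and to 37.2 to 79.45 FPKM in stroma in vivo against 0 in culture. The 5 stromal markers summed to 144 to 298 FPKM in endothelium in vivo against 13.8 to 50.6 FPKM in culture. In stroma they summed to 58868 to 84804 FPKM in vivo and 49444 to 55377 FPKM alone, against 3254 to 8457 FPKM in culture. The part of each of these in the differences was not tested.

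Most further Nrf2 targets were lower in vivo in endothelium. Of 18, 13 fell and 1 rose in endothelium (median log2 difference -1.46), and 9 fell and 3 rose in stroma (median -0.87). Over all tested genes 29.8% fell and 23.6% rose in endothelium, and 31.4% fell of 55.4% called in stroma. Me1 and Slc7a11 fell in both (-4.45 and -3.74 in endothelium, -2.09 and -2.56 in stroma), with Slc7a11 at 1.46 to 1.77 FPKM in endothelium in vivo against 7.23 to 122 FPKM in culture. G6pdx, the entry enzyme of the pentose phosphate pathway, fell in both (-2.66 and -0.91). Its stromal mean in vivo, 109.6 FPKM, lay below the 213.6 FPKM of culture but above the 72.7 FPKM of stroma alone. Gsr, glutathione reductase, and Gsta4 fell in endothelium (-1.04 and -2.88) and rose in stroma (2.51 and 2.78), and both effects differed between the cell types by their test, though against stroma alone Gsta4 had -0.03. Blvrb, biliverdin reductase B, rose in both (1.34 and 1.02). Prdx1, Txn1, Ftl1 and Fth1 of this list have processed copies in the genome, so their values are less certain.

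Of 10 regulators and partners, 5 rose and 2 fell in endothelium in vivo and 3 rose and 1 fell in stroma, where 53.3% and 55.4% of all genes were called. Nfe2 was at 8.88 to 11.8 FPKM in endothelium in vivo against 0 to 1.89 FPKM in culture (2.66), and at 130.01 to 182 FPKM in stroma in vivo against a listed 0 in culture. Bach2 rose in endothelium (1.88), with Mafk and Bach1 higher in both (1.15 and 1.06 in endothelium, 1.63 and 0.60 in stroma) and Sqstm1 lower in both (-0.90 and -1.17). Among 11 tested zinc genes, 2 rose and 1 fell in endothelium, and 3 rose and 4 fell in stroma. Slc39a6 fell in both (-1.63 and -1.67) and Slc30a4 fell in stroma (-2.51), while Slc30a1 rose in stroma (1.23). Slc39a8, an importer of zinc and manganese, was at 197 to 249 FPKM in endothelium in vivo, against 2.56 to 9.67 FPKM in culture (5.02), and at 21.3 to 21.9 FPKM in stroma in vivo, against 3.36 to 4.57 FPKM in culture (2.16). The rise of Slc30a1 by 0.72 in endothelium became -0.48 (limma adjusted p = 4.71e-05) against endothelium alone. Of 12 other antioxidant enzymes, 2 rose and 6 fell in endothelium, and 1 rose and 2 fell in stroma. Prdx5 fell in both (-2.28 and -0.88), Prdx6 fell (-1.75) and Sod3 rose (2.97) in endothelium, and Gpx4, which reduces lipid hydroperoxides, fell in stroma (-1.38). The secreted glutathione peroxidase gene Gpx3 rose in both (4.68 and 6.32), and it stood at 8114 to 8920.3 FPKM in stroma in vivo, against 13.4 to 316 FPKM in culture.

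Of the 10 genes, endothelium and stroma differed most in the metallothioneins, in each of the 4 settings. Between cell types 5 of 10 genes were called in vivo (49.3% of tested genes), 9 with HSPC (85.1%), 10 alone (83.3%) and 6 in culture (38.7%). The counts in vivo and with HSPC thus lie nearest to the share of all genes. Mt1 and Mt2 were lower in endothelium in all 4. The stromal mean of Mt1 was 15.7 times the endothelial one in vivo, 63.0 times with HSPC and 82.8 times in culture, and that of Mt2 32.6, 455.9 and 189 times. Alone, Mt1 was listed at 0 in endothelium beside 861 to 951 FPKM in stroma. The log2 differences of endothelium minus stroma were -3.94 ± 0.78 and -4.99 ± 0.43 in vivo, -5.94 ± 0.12 and -8.61 ± 0.44 with HSPC, and -7.23 ± 0.78 and -7.17 ± 0.43 in culture for Mt1 and Mt2, with limma adjusted p of 0.0018 or below in each of these.

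Nqo1 was higher in endothelium in vitro and not called in vivo. The log2 difference of endothelium minus stroma was 2.34 ± 0.08 with HSPC, 3.23 ± 0.08 alone and 3.44 ± 0.49 in culture (limma adjusted p = 6.12e-11, 3.12e-12 and 0.000352), against -0.67 ± 0.49 in vivo (limma adjusted p = 0.288), where the libraries did not overlap and the fit of the groups in vivo only gave a call for lower levels in endothelium (limma adjusted p = 0.0029). Txnrd1 was likewise higher in endothelium with HSPC, alone and in culture (0.49, 0.98 and 0.94) and overlapped in vivo (-0.03 ± 0.14). Hmox1 changed its order: it was lower in endothelium with HSPC (-0.97 ± 0.06) and higher alone (0.62 ± 0.06), and not called in vivo or in culture. Keap1 was higher in endothelium in vivo (0.65 ± 0.12) and lower in each in vitro setting (-0.26, -0.26 and -0.36), and the call in culture was lost in fits of the compared groups only (limma adjusted p = 0.191) and without the Xist libraries (limma adjusted p = 0.448), and when any of 7 libraries was left out (limma adjusted p up to 0.0947). Gclm was lower in endothelium in vivo (-1.29 ± 0.31) and higher alone (0.94 ± 0.06). Its difference with HSPC was 0.19 ± 0.06, and 0.10 and 0.06, no longer called, under trimmed-mean and quantile scaling.

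Gclc was lower in endothelium in vivo (-0.55 ± 0.14) and higher alone (1.01 ± 0.04) and in culture (0.53 ± 0.14), and it was not called with HSPC (0.06 ± 0.04, limma adjusted p = 0.18). The call in culture was lost in the fit of the compared groups only and without the Xist libraries (limma adjusted p = 0.116 and 0.234). It was also lost without cultured endothelial replicate 2 or cultured stromal replicate 2 or 3 (limma adjusted p = 0.0501, 0.0634 and 0.061). Nfe2l2 was higher in endothelium with HSPC (0.51 ± 0.04) and alone (1.52 ± 0.04) and not called in vivo (0.31 ± 0.20, limma adjusted p = 0.219) or in culture (0.39 ± 0.20, limma adjusted p = 0.15). Srxn1 was higher in endothelium with HSPC (0.43 ± 0.06) and alone (0.64 ± 0.06) and not called in vivo or in culture. Averaged on the log2 scale over the 6 target enzymes, libraries lay at 6.14 to 6.21 in endothelium and 6.37 to 6.89 in stroma in vivo, at 8.26 to 8.33 in endothelium and 7.85 to 7.90 in stroma with HSPC, at 8.33 to 8.48 in endothelium and 7.09 to 7.24 in stroma alone, and at 7.98 to 9.31 in endothelium and 7.49 to 8.01 in stroma in culture. On this average endothelium thus lay below stroma in vivo and, apart from the overlap in culture, above it in vitro, though not for each target. With HSPC the average leaned on Nqo1, with a mean of 9.15 in endothelium and 6.81 in stroma. Hmox1 went the other way, at 9.97 and 10.94. Txnrd1, Srxn1 and Gclm were higher in endothelium by less than Nqo1, and Gclc was not called.

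Cells without HSPC were also compared between the groups alone and in culture. In endothelium 4 of 10 were called, all lower alone, where 23.2% of tested genes were called (14.4% lower), and in stroma 3 of 10, all lower alone, where 33.8% were called (17.8% lower). In endothelium these were Mt1, Mt2, Gclc and Txnrd1. Mt1 was listed at 0 in the 3 libraries alone, against 4.17, 58.4 and 4.09 FPKM in culture, and Gclc was at 107 to 110.1 FPKM alone, against 141 to 167 FPKM in culture (-0.45 ± 0.14, limma adjusted p = 0.047). In stroma Gclc, Nfe2l2 and Txnrd1 were lower alone, with differences of -0.93 ± 0.14, -0.67 ± 0.19 and -0.46 ± 0.11 (limma adjusted p = 0.000786, 0.0213 and 0.00996). The Gclc call in endothelium was lost without the Xist libraries and under trimmed-mean or quantile scaling (limma adjusted p = 0.198, 0.0679 and 0.0502), among others. Without the Xist libraries, which keeps only replicate 1 of cultured endothelium, the endothelial differences were -0.36 for Gclc and -2.57 for Mt2. Not all calls stayed lower under other scalings. Trimmed-mean and quantile scaling each gave 1 member higher alone and 3 lower in endothelium. Over all tested genes 12.3% and 11.4% were then higher, and 10.9% and 10.8% lower. The counts of 4 and 3 rest on single libraries: with each left out in turn they lay between 1 and 5 in both cell types. In endothelium 2 were called without replicate 1 of endothelium alone and 1 without its replicate 2 or 3, and in stroma 1 was called without replicate 1 of stroma alone and 5 without cultured endothelial replicate 3. Scaling by trimmed means moved the median of all genes in endothelium from -0.11 to -0.00, and the share of calls higher alone to 53.2%, against 37.8% unscaled.

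Mt1 and Mt2 did not keep a fixed ratio to each other. Their transcripts share no run longer than 20 bases, shorter than the 51-base reads, so reads can be told apart. The Mt1 to Mt2 ratio of FPKM was 0.898 to 2.07 in the 12 stromal libraries and 1.89 to 2.52 in endothelium in vivo. It was 7.26, 9.23 and 7.03 in endothelium with HSPC, and 0.483, 8.97 and 0.856 in cultured endothelium, where replicate 2 had the ratio of the libraries with HSPC and the others did not. Mt2 stood at only 6.51 FPKM in that library. In cultured endothelium the granulocyte markers were at 0, the leukocyte markers summed to 1.71 to 7.44 FPKM and the macrophage markers to 83.9 to 167 FPKM. The source of the ratio was not tested.

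**Figure D5:**
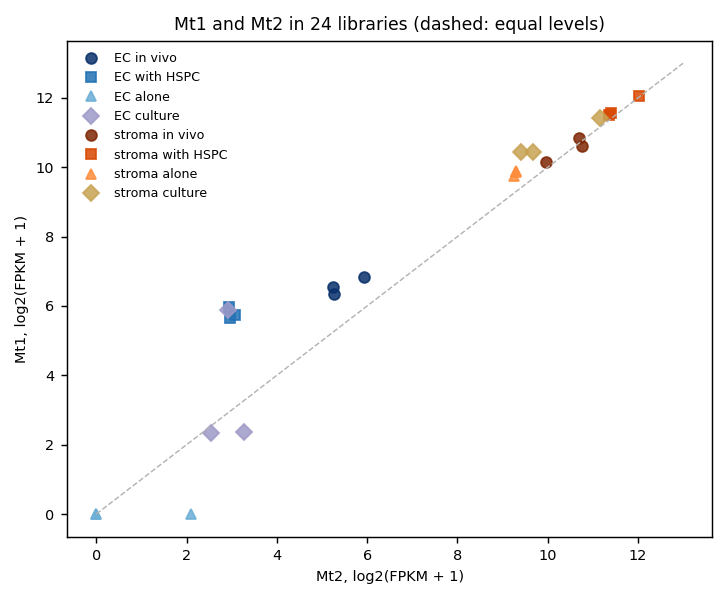
Mt1 (y axis) against Mt2 (x axis), both as log2(FPKM + 1), with a point per library, a colour and shape per group and a dashed line at equal levels. The 12 stromal libraries lie at the upper right near the line, and endothelium with HSPC and cultured replicate 2 lie above the line at a low level of Mt2.

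Genes with the most similar pattern were sought over all 24 libraries, by the root mean square difference of log2 profiles centred on their own mean among 13949 other genes, as a description in which libraries of a group share their condition. For Mt1 (spread of its own profile 3.90) the nearest was Mt2 at 1.19, then Lsp1 at 1.68 and 0610007N19Rik at 1.72. For Nqo1 (spread 2.12) the nearest were Nmnat2 at 0.67, 4930452B06Rik at 0.74 and Sh3gl3 at 0.90. For Hmox1 (spread 1.17) they were Aldoart2 at 0.56, Aldoart1 at 0.56 and Aldoa at 0.57, near copies of one aldolase sequence whose reads may be shared. For Txnrd1 (spread 0.74) they were Tbca at 0.25, Pinx1 at 0.27 and Coq7 at 0.27. No Nrf2 gene of the set was among the 3 nearest of Hmox1, Nqo1 or Txnrd1. Profiles were centred but not scaled, so genes of unlike spread lie apart even where they move together. No conclusion is drawn from that absence.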

How the data were processed

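PolyA RNA was extracted with Trizol and sequenced as paired 51-base reads from TruSeq libraries, per the labels' protocols. The files hold FPKM as deposited. The submitters' processing notes name TopHat, Cufflinks and mm9, with no role or order. Versions, annotation and strand use are not given in the sources used here. Totals above 1421447 FPKM are higher than plain FPKM usually sums to, and no further scaling is stated. Exons of Gclm, Keap1 and Mt2 overlap genes of the GENCODE annotation that the files do not list, so reads of both could be counted there.

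Groups were taken from titles. Values were used as deposited, on log2(FPKM + 1), where the pseudocount of 1 understates changes of low genes. Models in limma 3.58.1 (R 4.3.3; lmFit, then eBayes with trend), 3 in all, each took 12 libraries of 4 groups, in vivo with culture, HSPC with alone, and alone with culture, and gave 12 comparisons, 2 of them interactions. Tested genes had 1 FPKM in at least 3 libraries of a fit. The procedure was tested on simulated data with 200 changed genes. All 10 members are named. Of other lists (18 further Nrf2 targets, 10 regulators and partners, 13 zinc genes, 12 antioxidant enzymes), genes with the largest called differences are named, up to 4 per list in the comparisons with HSPC and in vivo, and others beside them were chosen after their values were seen. Similar genes had a mean of at least 5 FPKM in a group. Members and lists were chosen with earlier results of these data known. Promoters are RefSeq's (GRCm38.p6), matched by symbol. No 2 libraries were identical. Same-numbered libraries deviated together at correlations of -0.17 to 0.13, so numbers were not taken as pairs. Other settings tried were trimmed-mean scaling, a smaller pseudocount (0.1), a filter raised to 5 FPKM, no filter, quantile normalization, a replicate block, only the compared groups, no cultured libraries with Xist, the groups alone in place of culture, and each library left out. Figures used Python 3.11.15 and matplotlib 3.10.9. Reads and isoforms were not used here.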

Additional observations from a re-analysis of the deposited data

Results flagged for a closer look

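The tests of whether an effect differed between endothelium and stroma passed for 15 results, given here as endothelium minus stroma on log2(FPKM + 1). For in vivo minus culture they were 1.01 for Keap1, -4.10 for Nqo1, -1.08 for Gclc, -2.10 for Gclm, -0.97 for Txnrd1, 3.29 for Mt1 and 2.18 for Mt2. For HSPC minus alone they were -1.01 for Nfe2l2, -1.59 for Hmox1, -0.88 for Nqo1, -0.95 for Gclc, -0.75 for Gclm, -0.49 for Txnrd1, -0.21 for Srxn1 and 3.90 for Mt1. The last value depends on the pseudocount, since Mt1 was listed at 0 in endothelium alone, and was 7.20 at a pseudocount of 0.1. Nfe2l2, Nqo1, Gclc and Gclm were called in opposite directions in the cell types, lower with HSPC in endothelium and higher with HSPC in stroma. For Nqo1 the stromal groups overlapped. Its stromal call was lost in a fit of the compared groups only (limma adjusted p = 0.0612) and when some single libraries were left out.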

How the results depend on the processing

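Of 910 results for single members under other settings 842 kept their direction and side of the threshold, and 1333 of 1440 did with a library left out. Against the cultures alone, the number of members called in stroma in vivo was 10 (79.8% of all tested genes). Values that changed sign included Gclc 0.59, Mt1 0.69 and Gsta4 -0.03 in stroma, and Slc30a1 -0.48 in endothelium. G6pdx in stroma did so too, with means of 109.6 FPKM in vivo and 72.7 FPKM alone. The list of such genes is not complete. Without replicate 1 of endothelium alone, the difference in the HSPC effect was 0.67 for Mt2 (limma adjusted p = 0.0199), against -0.38 without replicate 2. Without the Xist libraries, Srxn1 was -0.62 in endothelium alone against culture, and 7 members were called in stroma alone against culture. With only the compared groups in the fit, 8 were called for endothelium against stroma in vivo (74.2% of all), 1 in endothelium alone against culture and 5 in stroma. The last pair gave 1 to 5 and 1 to 5 calls with a library left out. Numbers did not pair the samples, and with a replicate block the calls were 2 for endothelium alone against culture, 9 for endothelium in vivo against culture, 10 with HSPC in endothelium and 9 in stroma. With the block Mt1 was not called for the in vivo effect (limma adjusted p = 0.0633). The causes were not tested. Depth is unknown, and 3 libraries a group limit every call.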
